A study of Mus musculus with 32 samples.

Results

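The muscarinic and adrenergic receptors followed here are 9 genes, Chrm1, Chrm2, Chrm3, Chrm4, Adra1a, Adra1b, Adra1d, Adrb1 and Adrb3, out of 32285 genes in the count table. They were chosen by name, by matching each Ensembl identifier of the table to its gene symbol, and all 9 had a row. RNA sequencing of total RNA was carried out on 32 whole bladders of female C57BL/6 mice, 1 library per bladder, in 6 groups. The untreated groups were young mice of 2 months (n = 6), middle-aged mice of 10 months (n = 5) and old mice of 26 months (n = 6). The gavaged groups were also 26 months old and were gavaged on 3 consecutive days a month from 21 to 26 months, with water (n = 5), with vehicle (n = 4) or with D + Q (n = 6). The vehicle held 10% ethanol and 30% polyethylene glycol 400, the remaining 60% being Phosal 50 PG. D + Q is a combination of drugs used to remove senescent cells, here 5 mg/kg/day dasatinib and 50 mg/kg/day quercetin. No cells were sorted. The comparisons ask how the receptors differ with age and, among old bladders, with gavage and with D + Q.

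These receptors carry the signals of the autonomic nerves that fill and empty the bladder. Acetylcholine from parasympathetic nerves acts on muscarinic receptors and contracts the detrusor, the muscle of the bladder wall. Noradrenaline from sympathetic nerves relaxes the detrusor through beta-adrenergic receptors and contracts the outlet through alpha-1 receptors. Chrm1, Chrm3 and the alpha-1 receptors signal through Gq, phospholipase C and calcium release. Chrm2 and Chrm4 signal through Gi and lower cAMP, while Adrb1 and Adrb3 signal through Gs and raise it.

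The library totals ranged from 15088372 to 52650259 counts, so that 3 counts, taken as the detection floor, corresponded to 0.057 to 0.199 CPM, the gene's counts relative to a library total scaled with TMM factors. These floors cover counting error only. Every one of the 9 smooth muscle markers and of the 9 urothelial markers, uroplakins included, was detected in each group. Summed smooth muscle markers were 26450 to 42320 CPM per bladder, and summed urothelial markers 4856 to 6424 CPM. Young replicate 1 stood apart for Chrm2 and had the highest smooth muscle sum of the young bladders, 42320 CPM against 26450 to 37470 CPM in the other 5. The Chrm2 fold changes against young bladders and its test over the 6 groups are given with and without it. The ratios of Chrm2 to Chrm3 and the orders of the groups are given with it only. In whole bladders, fewer cells of a type and less RNA per cell cannot be told apart.

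**Figure D1:**
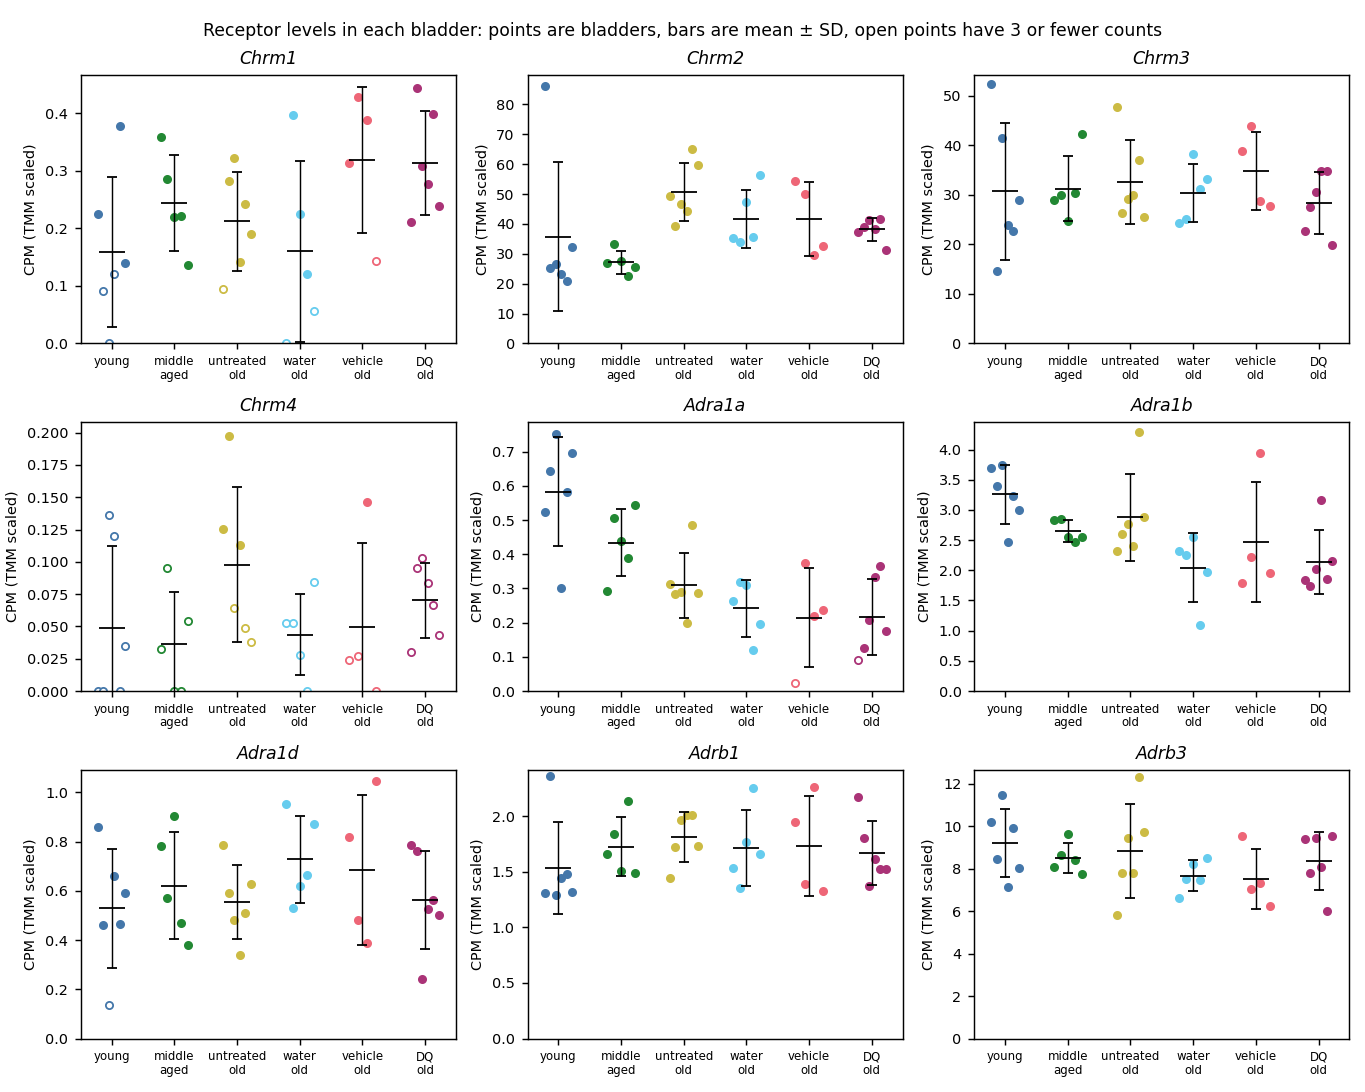
Levels of the 9 receptors in each of the 32 bladders, in TMM-scaled CPM on linear axes that start at 0. Points are bladders, bars are the group mean ± SD, and open points have 3 or fewer counts. All 6 untreated old bladders lie above the 5 middle-aged bladders for Chrm2, with young replicate 1 far above the other young bladders, and the mean of Adra1a is lower in untreated old than in young bladders, with overlapping points.

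Per transcript length, Chrm2 and Chrm3 were the most abundant of the 9 receptors. Over the 32 bladders, Chrm2 stood at 22.3 ± 7.97 TPM (SD), a level that takes the length of the gene into account, and Chrm3 at 17.2 ± 4.63 TPM. Together they held 58.9 to 82.4% of the summed TPM of the 9 genes, with a median of 73.3%. Adrb3, the beta-adrenergic receptor that relaxes the detrusor and the target of drugs for overactive bladder, followed at 8.59 ± 1.55 TPM. Adra1b stood at 2.64 ± 0.736 TPM, Adrb1 at 1.73 ± 0.336 TPM and Adra1d at 1.10 ± 0.375 TPM. Chrm4, Adra1a and Chrm1 were near the floor, with 0.142, 0.135 and 0.123 TPM. Chrm4 had 3 or fewer counts in 28 of 32 bladders, Chrm1 in 7, Adra1a in 2 and Adra1d in 1, while the other 5 receptors were above 3 counts in every bladder.

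The groups were also put in order of their mean CPM for each receptor. All 45 steps between neighbouring groups in these orders had overlapping ranges of bladders. Only 1 of them, from untreated old (0.309 CPM) to middle-aged (0.434 CPM) for Adra1a, was larger than the larger SD of its pair of groups. Neighbours in such an order have the closest means, so their overlap says little about groups farther apart. The share of overlapping steps over all genes was not counted. For Chrm2, middle-aged and untreated old bladders, at opposite ends of its order, did not overlap, as for 14.6% of genes tested in that comparison. In a test of any difference among the 6 groups (edgeR quasi-likelihood F test), 31.9% of 18093 genes passed. Of the 8 receptors with enough counts for this test, 1 passed, Adra1a, with an edgeR adjusted p of 0.00686. The edgeR adjusted p was 0.0553 for Adra1b, 0.095 for Chrm2 and 0.394 to 0.902 for the other 5, and Chrm4 was not tested. Without young replicate 1, Chrm2 passed as well, with an edgeR adjusted p of 0.000101. Adra1b passed with an adjusted p of 0.0269 in DESeq2, and with 0.00992 to 0.0451 in edgeR when any 1 of young replicate 4, water-treated replicate 3, vehicle-treated replicates 1 or 3 or D + Q-treated replicate 4 was left out. With at least 10 counts required in every bladder, none passed and Adra1a was not tested.

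Chrm2, on chromosome 6 of mm10 (36388084 to 36528414, plus strand), encodes the more abundant muscarinic receptor of the detrusor, which opposes cAMP-driven relaxation. Chrm3, on chromosome 13 (9875486 to 10360847, minus strand), encodes the receptor that drives most of the contraction. Since this pair held most receptor transcripts, the 250 bases before their starts as annotated by RefSeq (GRCm38.p6) are printed, 5′ to 3′, at chr6:36387834-36388083 on the plus strand and chr13:10360804-10361053 on the minus strand. The RefSeq start of Chrm3 lies inside the span of the gene given above, so that the first bases of that span are part of the printed stretch. Capitals mark matches, on either strand, to the GC box (GGGCGG) or the CCAAT box (CCAAT).
Chrm2: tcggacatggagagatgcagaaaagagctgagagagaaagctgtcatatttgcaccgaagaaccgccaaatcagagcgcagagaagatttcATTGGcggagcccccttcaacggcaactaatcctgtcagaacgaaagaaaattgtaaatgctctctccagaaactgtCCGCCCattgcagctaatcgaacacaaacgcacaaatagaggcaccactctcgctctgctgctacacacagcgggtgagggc
Chrm3: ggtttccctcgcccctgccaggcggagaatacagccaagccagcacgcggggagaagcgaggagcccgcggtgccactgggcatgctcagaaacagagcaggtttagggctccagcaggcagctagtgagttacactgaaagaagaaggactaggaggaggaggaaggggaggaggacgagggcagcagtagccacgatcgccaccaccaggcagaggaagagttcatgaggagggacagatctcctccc
The Chrm2 stretch held 1 GC box, read as CCGCCC on the printed strand at -82 to -77 from the start, and 1 CCAAT box, read as ATTGG at -159 to -155. Among 32851 promoter stretches of the same length in the table, 32.7% held a GC box and 33.8% a CCAAT box. The Chrm3 stretch held neither. Both lacked these letters for the E-box (CANNTG, in 66.2% of all stretches), the TATA box (TATAAA, 12.4%), the cAMP response element (TGACGTCA, 1.55%) and the CArG box bound by serum response factor (1.47%). The E-box, the cAMP response element and the CArG box read alike on both strands. G and C made up 50% of the Chrm2 stretch and 61.2% of the Chrm3 stretch, against a median of 52.4% over all stretches. Of the 9 receptors, 5 had an entry in the table.

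Between middle-aged and young bladders, none of the 7 receptors tested passed, where 10.8% of 16754 genes did. DESeq2 and limma called none either, and 1 receptor, Adra1b, had an unadjusted p under 0.05, as did 27.2% of all genes tested. Adra1b, on chromosome 11 (43774606 to 43901210, minus strand), encodes an alpha-1 receptor best known from blood vessels, liver and brain. Its young bladders stood at 2.46 (lowest), 3.32 (median) and 3.75 CPM (highest), and its middle-aged bladders at 2.84, 2.85, 2.54, 2.47 and 2.55 CPM. The ranges overlapped through young replicate 4, the lowest of the young. The log2 fold change was -0.29 (SE 0.13) with an edgeR adjusted p of 0.161, and -0.36 with an adjusted p of 0.0453 without young replicate 4.

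Chrm2 in the young bladders had a lowest value of 20.9, a median of 25.9 and a highest of 86.2 CPM. The middle-aged bladders stood at 26.9, 33.3, 27.6, 22.5 and 25.5 CPM. Young replicate 1, with 2306 counts, lay above every other young and middle-aged bladder, and the other 5 young bladders, at 25.7 ± 4.3 CPM, overlapped with the middle-aged bladders. The log2 fold change of middle-aged against young was -0.39 (SE 0.32, edgeR adjusted p = 0.469) with all bladders and 0.08 (adjusted p = 0.727) without young replicate 1. In that bladder Chrm3 was also highest of the young, at 52.4 CPM, against 14.7 to 41.4 CPM in the other 5.

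Between untreated old and middle-aged bladders, Chrm2 rose, and it was the only 1 of 7 receptors tested to pass, where 24% of 17156 genes passed in either direction and 13% were higher. The old bladders stood at a lowest of 39.3, a median of 48.1 and a highest of 65.0 CPM, all above the highest middle-aged bladder at 33.3 CPM. Groups that did not overlap were found for 14.6% of the genes tested. The mean went from 27.1 ± 3.96 CPM (SD, n = 5) to 50.7 ± 9.71 CPM (SD, n = 6). The log2 fold change was 0.91 (SE 0.13, 95% interval 0.62 to 1.19) with an edgeR adjusted p of 0.000348. It was 0.82 to 0.99 with each bladder left out in turn, with adjusted p of 0.00021 to 0.00184. DESeq2 and limma also called it. No other receptor had an unadjusted p under 0.05 in this step, where 35.8% of the genes tested did. The median log2 fold change of the 7 receptors was 0.06, against -0.0047 over all genes tested.

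For Chrm3, by contrast, the groups did not differ beyond their spread. Its middle-aged bladders stood at 29.0, 30.0, 24.8, 30.25 and 42.2 CPM. Its untreated old bladders had a lowest value of 25.5, a median of 29.6 and a highest of 47.7 CPM. The ranges overlapped almost fully, and the log2 fold change was 0.06 (95% interval -0.31 to 0.42, edgeR adjusted p = 0.833). The interval leaves out a change as large as that of Chrm2.

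Reads of Chrm2 share exons with 9330158H04Rik, an RNA of the opposite strand, whose own level was 1.01 ± 0.253 CPM at middle age and 1.955 ± 0.578 CPM in the untreated old group. The strand setting of the counting is not stated, and without it reads of the pair cannot be told apart. Of the 9 smooth muscle markers, 3 (Myh11, Smtn and Lmod1) were lower from middle-aged to untreated old bladders and none was higher, where 24% of all genes tested passed in either direction. The summed level was 28300 to 32540 CPM in old against 27720 to 38290 CPM in middle-aged bladders. B-cell markers (5 of 5) and T-cell markers (5 of 5) were higher, with sums of 168.9 to 834.0 CPM (B cells) and 29.3 to 64.8 CPM (T cells) in old against 5.51 to 33.55 and 8.57 to 11.45 CPM in middle-aged bladders. No marker of either list was at 0 in every bladder of a group, and their part in the Chrm2 result was not tested.

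The balance of the pair was read within each bladder as the ratio of TPM. In middle-aged bladders Chrm2 was 0.623 to 1.15 times Chrm3, with a median of 0.959. In untreated old bladders it was 1.07 to 2.41 times Chrm3, with a median of 1.605. Only untreated old replicate 1 lay inside the middle-aged range. The mean log2 ratio was 0.845 higher in old bladders (two-sided exact permutation p = 0.00866, where the smallest possible is 0.00216), but over 24 such tests of 3 ratios in 8 comparisons the adjusted p was 0.208. Between old and young bladders the ratio differed by 0.51 on the log2 scale (exact permutation p = 0.106, adjusted p = 0.509). None of the 24 ratio tests passed after adjustment, and 1 had an unadjusted p under 0.05.

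**Figure D2:**
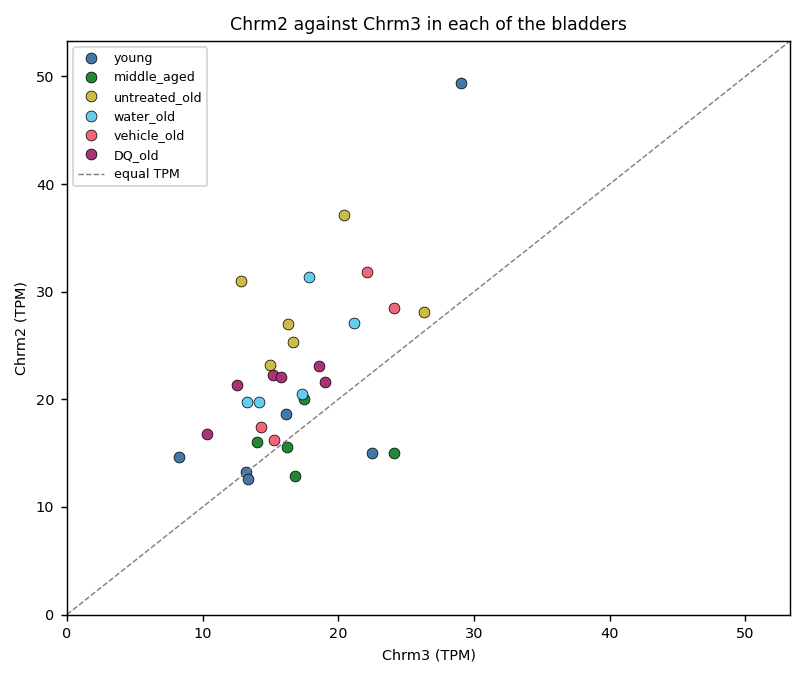
Chrm2 against Chrm3 in each of the 32 bladders, in TPM on linear axes, coloured by group, with a dashed line where both are equal. All 6 untreated old bladders lie above the line, the 5 middle-aged bladders lie on both sides of it, and young replicate 1 is highest for both genes.

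Between untreated old and young bladders, 1 of 7 receptors tested passed, where 25.1% of 16873 genes passed in either direction and 12.4% were lower. This was Adra1a, on chromosome 14 (66635251 to 66771168, plus strand), the alpha-1 receptor that contracts the bladder neck and urethra. Young bladders stood at a lowest of 0.300, a median of 0.613 and a highest of 0.750 CPM. Middle-aged bladders stood at 0.2935, 0.507, 0.438, 0.388 and 0.543 CPM, with a mean of 0.434 CPM between the young and the old means, though replicate 1 lay below the old mean. Untreated old bladders stood at a lowest of 0.198, a median of 0.288 and a highest of 0.485 CPM. No other receptor had an unadjusted p under 0.05, against 36.3% of all genes tested. The Adra1a levels rest on 5 to 21 counts per bladder in the young and 7 to 20 in the old group, and the ranges overlapped.

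Adra1a fell from 0.583 ± 0.16 CPM (SD, n = 6) in young to 0.309 ± 0.0948 CPM (SD, n = 6) in untreated old bladders, a log2 fold change of -0.91 (SE 0.25, 95% interval -1.45 to -0.36, edgeR adjusted p = 0.018). The steps from young to middle-aged (-0.42, edgeR adjusted p = 0.303) and from middle-aged to old (-0.48, edgeR adjusted p = 0.184) did not pass. With each bladder left out in turn the fold change was -1.09 to -0.81, with adjusted p of 0.00613 to 0.0459. On log2(TPM + 1), a scale on which a gene below 1 TPM hardly moves, limma gave -0.14 and an adjusted p of 0.103. It was called by DESeq2 and by limma on log2(TPM + 0.1).

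Chrm2 did not pass between untreated old and young bladders, with a log2 fold change of 0.50 (SE 0.31, edgeR adjusted p = 0.263). Without young replicate 1 the fold change was 0.99 with an edgeR adjusted p of 0.000393. With each bladder left out in turn it was 0.38 to 0.99, with edgeR adjusted p of 0.000393 to 0.413. The old bladders stood at 39.3 to 65.0 CPM and the other 5 young bladders at 20.9 to 32.3 CPM. Young replicate 1, at 86.2 CPM, lay above all of them, so that the full groups overlapped. Chrm3 differed by 0.09 (95% interval -0.47 to 0.66, edgeR adjusted p = 0.84).

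Adrb1, on chromosome 19 (56722199 to 56733113, plus strand), is the main beta-adrenergic receptor of the heart. It stood at 1.53 ± 0.411 CPM in young and 1.81 ± 0.225 CPM in untreated old bladders, a log2 fold change of 0.23 (SE 0.17, edgeR adjusted p = 0.361). Without young replicate 2, at 2.36 CPM the highest of the young, the fold change was 0.41 with an edgeR adjusted p of 0.0431.

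Adrb3, on chromosome 8 (27225776 to 27250616, minus strand), stood at 8.06, 8.62, 9.63, 8.401 and 7.76 CPM in middle-aged bladders. Untreated old bladders stood at a lowest of 5.81, a median of 8.61 and a highest of 12.3 CPM, wider than and around the middle-aged range. The log2 fold change was 0.06 (95% interval -0.27 to 0.38, edgeR adjusted p = 0.828). Its exons overlap with those of Gm45470 on the opposite strand, at 4.14 to 7.84 CPM per bladder. Adrb3 is also the beta-adrenergic receptor of fat, and summed adipocyte markers were 235.0 to 364.7 CPM in untreated old and 242.9 to 335.2 CPM in middle-aged bladders, with Plin4, the most abundant of the 8, lower (-0.22, edgeR adjusted p = 0.0203). The other 7 gave log2 fold changes of 0.46 to 0.85 without passing, and the median of the 8 was 0.66.

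Adra1d, on chromosome 2 (131545850 to 131562283, minus strand), an alpha-1 receptor present in the detrusor, stood at 0.621 ± 0.217 CPM in middle-aged and 0.556 ± 0.15 CPM in untreated old bladders. The log2 fold change was -0.15 (95% interval -0.71 to 0.41, edgeR adjusted p = 0.712). Adra1b differed by 0.12 between the same groups (edgeR adjusted p = 0.595) and by -0.17 between untreated old and young bladders (edgeR adjusted p = 0.48). Exons of Adra1d overlap with those of Gm14285 on the opposite strand, which had 0 to 2 counts per bladder.

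Chrm1, on chromosome 19 (8663789 to 8683587, plus strand), and Chrm4, on chromosome 2 (91927249 to 91928688, plus strand), are known mainly from neurons. Neither had enough counts for the tests between ages. Chrm1 had 0 to 13 counts in young, 5 to 11 in middle-aged and 3 to 10 in untreated old bladders. Chrm4, counted over 1440 bases only, had 0 to 2, 0 to 3 and 2 to 7 counts in the same groups, at a highest level of 0.198 CPM.

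**Figure D3:**
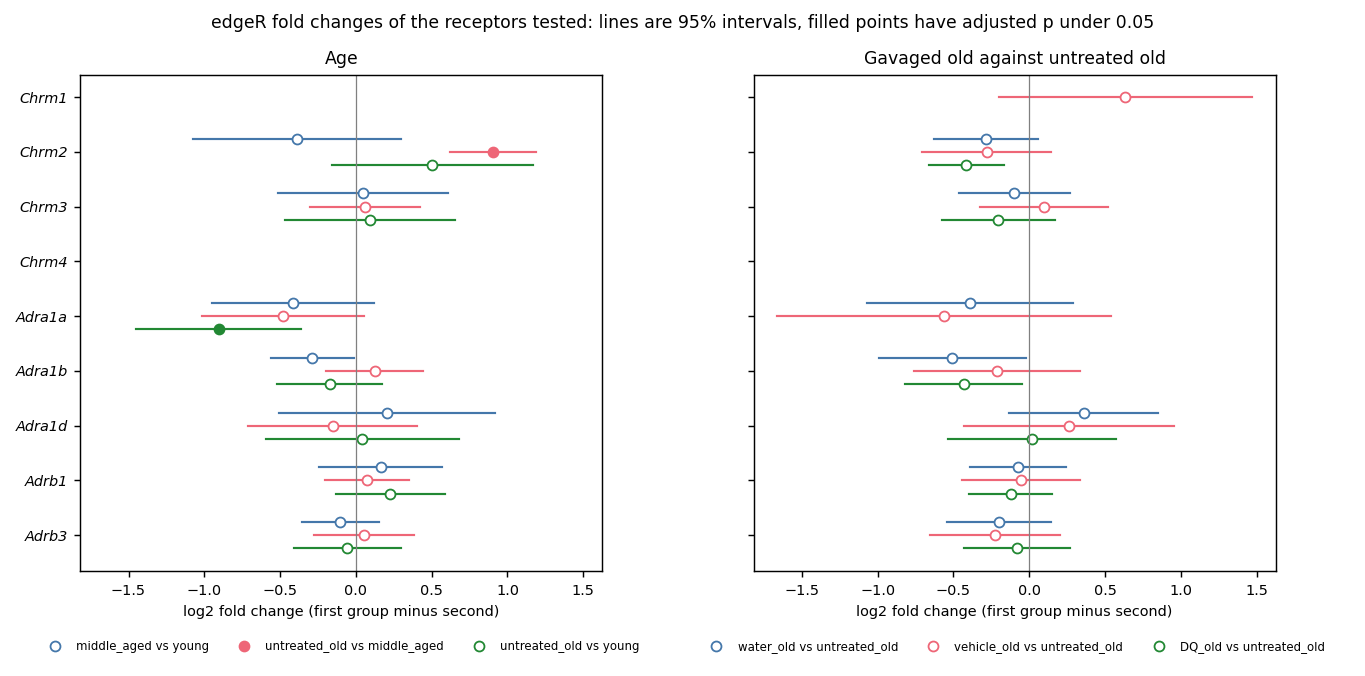
Log2 fold changes of the receptors tested in the 3 comparisons of age (left) and of the gavaged with untreated old bladders (right). Points are edgeR estimates, lines are 95% intervals, and filled points have an adjusted p under 0.05, which are Chrm2 in untreated old against middle-aged and Adra1a in untreated old against young bladders.

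Among old bladders, no receptor passed in edgeR between any gavaged group and the untreated old bladders. With water, 0 of 7 receptors tested passed, where 1% of 17250 genes did, with log2 fold changes of -0.51 to 0.36. DESeq2 and limma called none, and 1 receptor, Adra1b, had an unadjusted p under 0.05, against 16% of all genes. With vehicle, 0 of 8 passed, where 0% of 17440 genes did, with fold changes of -0.56 to 0.63, none with an unadjusted p under 0.05 (8.39% of all genes) and none called by DESeq2 or limma. With D + Q, 0 of 6 passed, where 0% of 17037 genes did, with fold changes of -0.43 to 0.02. Here 2 receptors, Chrm2 and Adra1b, had an unadjusted p under 0.05, against 12.9% of all genes, DESeq2 called 1 and limma none. The 3 comparisons share the same untreated old bladders.

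Chrm2 stood at a lowest of 31.1, a median of 38.5 and a highest of 41.8 CPM in the D + Q-treated bladders. The water-treated bladders stood at 35.2, 33.9, 47.3, 35.7 and 56.3 CPM and the vehicle-treated bladders at 54.3, 50.1, 29.7 and 32.6 CPM. The D + Q-treated bladders lay close together, and 4 of them lay below the lowest untreated old bladder at 39.3 CPM. So did the water-treated bladders at 35.2, 33.9 and 35.7 CPM and the vehicle-treated bladders at 29.7 and 32.6 CPM. D + Q against untreated old gave a log2 fold change of -0.41 (SE 0.11, 95% interval -0.66 to -0.17, edgeR adjusted p = 0.269). DESeq2 gave the same fold change with an adjusted p of 0.0344, and limma gave adjusted p of 0.318 and 0.321. Water (-0.28, edgeR adjusted p = 0.402) and vehicle (-0.28, edgeR adjusted p = 0.686) lay on the same side without passing.

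Against the gavaged controls, none of 7 receptors tested passed with D + Q. Against vehicle 0% of 17267 genes passed, and against water 0% of 17161. No receptor had an unadjusted p under 0.05 in either comparison, where 4.18% and 7.82% of all genes did, and DESeq2 and limma called none. Chrm2 differed by -0.13 from vehicle (95% interval -0.48 to 0.22, edgeR adjusted p = 0.994) and by -0.13 from water (95% interval -0.41 to 0.15, edgeR adjusted p = 0.841). Chrm3 differed by -0.30 from vehicle (95% interval -0.70 to 0.09, edgeR adjusted p = 0.994). Differences of these sizes were within the spread between bladders. Chrm1, at 7 to 14 counts per bladder with D + Q and 0 to 15 with water, gave 0.83 with an interval of -0.25 to 1.91 (edgeR adjusted p = 0.711).

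Adra1b in water-treated bladders stood at 2.33, 2.25, 2.56, 1.09 and 1.97 CPM, against a lowest of 2.32, a median of 2.68 and a highest of 4.29 CPM in untreated old bladders (log2 fold change -0.51, SE 0.22, edgeR adjusted p = 0.293). D + Q-treated bladders stood at a lowest of 1.74, a median of 1.94 and a highest of 3.17 CPM (log2 fold change -0.43, SE 0.18, edgeR adjusted p = 0.356). Both groups had a lower median, and both ranges overlapped with that of the untreated old bladders. Adra1a, with a median of 7 counts in each gavaged group, was too low to be tested after D + Q. In the water-treated bladders Adra1d was 7.18 to 21.1 times Adra1a by TPM, against 4.64 to 10.7 times in untreated old bladders (log2 difference 0.74, exact permutation p = 0.0628, adjusted p = 0.502). The same ratio differed by 1.07 on the log2 scale between untreated old and young bladders (exact permutation p = 0.0541, adjusted p = 0.502).

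The genes that make, clear or transmit the receptors' signals were read from 7 lists, of which 49 genes were tested in each comparison. Of these 49, edgeR called 6 in middle-aged against young bladders, where 10.8% of all genes tested passed, and 22 in untreated old against middle-aged bladders, where 24% did. Of 10 genes of Gq, phospholipase C and calcium release, 1 was higher and 1 lower in middle-aged against young bladders, and 2 were higher and 5 lower in untreated old against middle-aged bladders. The list's median log2 fold change in the latter was -0.11, against -0.0047 over all genes tested. Itpr3, a calcium release channel, rose by 0.40 and Gnaq, the Gq subunit itself, fell by 0.21 up to middle age (edgeR adjusted p = 0.0143 and 0.0201). After middle age Plcb2, a phospholipase C of blood cells, rose by 0.49 and the channel Itpr2 by 0.35, while Plcb4 fell by 0.21 and Itpr1 by 0.17 (edgeR adjusted p = 0.00864, 0.000119, 0.00105 and 0.0309). The call of Gnaq was lost with the replicate number as a block and without middle-aged replicates 1 or 3, that of Plcb2 in 1 fit of all groups, and that of Itpr1 in the same fit and without middle-aged replicates 1, 2 or 5 or untreated old replicates 1, 2, 3, 4 or 6.

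Of 16 genes of Gs, cAMP and protein kinase A, none was higher and 1 lower up to middle age, and 2 were higher and 3 lower afterwards (median -0.03). Among all genes tested, 10.8% and 24% passed in these steps, in that order. The cyclase Adcy2 fell from 7.95 ± 0.802 to 5.26 ± 0.594 CPM up to middle age (log2 fold change -0.58, edgeR adjusted p = 0.00561). Afterwards the phosphodiesterase Pde4b rose by 0.50 and the cyclase Adcy7 by 0.34, while Pde3a fell by 0.22 and Prkaca, the catalytic subunit of protein kinase A, by 0.16 (edgeR adjusted p = 0.0127, 0.00205, 0.0295 and 0.0019). Markers of B cells (5 of 5), T cells (5 of 5) and macrophages (4 of 5) were higher in the same step, and the part of these cells was not tested. The call of Pde4b was lost in 1 fit of all groups, and that of Pde3a without middle-aged replicates 1, 2, 3 or 5 or untreated old replicates 1, 2, 3 or 4. Of 4 Gi and Go subunits, none passed up to middle age and 1, Gnao1, was lower afterwards (fell by 0.24, edgeR adjusted p = 0.00721).

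Of 7 receptor kinases and arrestins, which switch off active receptors, 1 was higher and 1 lower up to middle age (10.8% of all genes tested passed). Afterwards 3 were higher and none lower (median 0.10), where 24% of all genes tested passed. The calls up to middle age were Grk3 (0.26) and Grk5 (-0.29), with edgeR adjusted p of 0.0229 and 0.00917. The call of Grk3 was lost in limma, in 1 fit of all groups and without young replicate 1 or middle-aged replicates 2 or 5. That of Grk5 was lost with the replicate number as a block. Afterwards Arrb2 rose by 0.50, Grk6 by 0.41 and Grk2 by 0.25 (edgeR adjusted p = 0.0038, 9e-05 and 0.000336). For each of them the groups did not overlap, as for 14.6% of all genes tested in this step. These 3 genes are also well expressed in lymphocytes and macrophages, whose markers were higher in the same bladders (4 of 5 macrophage markers, 327.4 to 497.8 CPM in sum in old against 265.0 to 314.9 CPM in middle-aged bladders), and the part of these cells was not tested.

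On the acetylcholine side, 4 of 8 genes had enough counts to be tested. None passed up to middle age, and 2 were higher and none lower afterwards (median 0.37). Among all genes tested, 10.8% and 24% passed in these steps. Ache, the esterase that breaks down acetylcholine, rose from 1.44 ± 0.159 to 2.43 ± 0.682 CPM (log2 fold change 0.75, SE 0.17), and Colq, the collagen tail that anchors it, from 1.67 ± 0.291 to 3.91 ± 1.78 CPM (log2 fold change 1.23, SE 0.28). Neither gene's groups overlapped, as for 14.6% of all genes tested in this step (edgeR adjusted p = 0.00717 and 0.00718). The genes of acetylcholine synthesis and loading, Chat, Slc18a3 and Slc5a7, had too few counts for a test. Of 7 neuron markers 4 were tested. Uchl1, the most abundant of them, was lower (-0.43, edgeR adjusted p = 0.000848), while Prph, Syt1 and Stmn2 gave 0.20, 0.44 and 0.14 without passing, and the median was 0.17. Summed levels, most of which are Uchl1, were 185.3 to 259.1 CPM in untreated old against 283.0 to 316.9 CPM in middle-aged bladders. Their part in these values was not tested.

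On the noradrenaline side, 6 of 8 genes were tested. None passed up to middle age, and none was higher and 4 were lower afterwards (median -0.22). The shares of all genes tested that passed in these steps were 10.8% and 24%. Ddc, the decarboxylase of the synthesis, fell by 0.55, and Slc6a2, the noradrenaline transporter, by 0.52 (edgeR adjusted p = 0.0486 and 0.0425). The oxidases Maob and Maoa fell by 0.28 and 0.16 (edgeR adjusted p = 0.00902 and 0.00968). The calls of all 4 genes were lost in 1 fit of all groups, those of Ddc and Slc6a2 also with no filter on low counts, and that of Ddc with the replicate number as a block. The call of Ddc was also lost without middle-aged replicates 2, 3 or 5 or untreated old replicates 1, 3, 5 or 6, and that of Slc6a2 without middle-aged replicates 1, 2, 3 or 5 or untreated old replicates 1, 3 or 4. Markers of Schwann cells, which sheathe the nerves, were lower in 3 of 6 cases, with sums of 141.4 to 157.5 CPM in untreated old and 158.4 to 175.6 CPM in middle-aged bladders, and their part was not tested. The synthesis enzymes Th and Dbh had too few counts for a test.

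Of the remaining receptors, Chrm5 and Adra2b had too few counts in the comparisons of age. Adra2a, more abundant than Adra2c, was tested and did not pass in any of these comparisons. Its group means were 4.10 ± 0.9 (young), 4.59 ± 0.683 (middle-aged) and 4.51 ± 1.05 CPM (untreated old), with SD. Adra2c, an alpha-2 receptor that restrains noradrenaline release from nerve endings, rose from 0.629 ± 0.311 CPM in young to 1.41 ± 0.177 CPM in middle-aged bladders (log2 fold change 1.13, SE 0.28, edgeR adjusted p = 0.0229). The groups did not overlap, as for 6.97% of all genes tested in this comparison. The call was lost without young replicate 1 or middle-aged replicates 1 or 2. Between untreated old and young bladders edgeR called 18 of the 49 genes, where 25.1% of all genes tested passed. Here Adra2c (0.94), Colq (0.9965) and Ache (0.71) rose (edgeR adjusted p = 0.0374, 0.0217 and 0.0193), as did Itpr3 (0.44), Itpr2 (0.42), Adcy7 (0.40), Grk3 (0.35) and Grk6 (0.30), while Adcy2 (-0.35) and Gnao1 (-0.22) fell. The call of Adra2c was lost with no filter on low counts and without young replicates 1, 2 or 5 or untreated old replicates 1, 2, 3 or 6, and that of Colq without untreated old replicates 1 or 2. In edgeR none of the 49 genes passed between any gavaged group and untreated old bladders. An unadjusted p under 0.05 was found for 9 (water), 4 (vehicle) and 6 (D + Q). Of all genes tested, 16%, 8.39% and 12.9% had such a p. DESeq2 called 3 of the 49 with water, where it called 693 of all genes, and none otherwise.

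**Figure D4:**
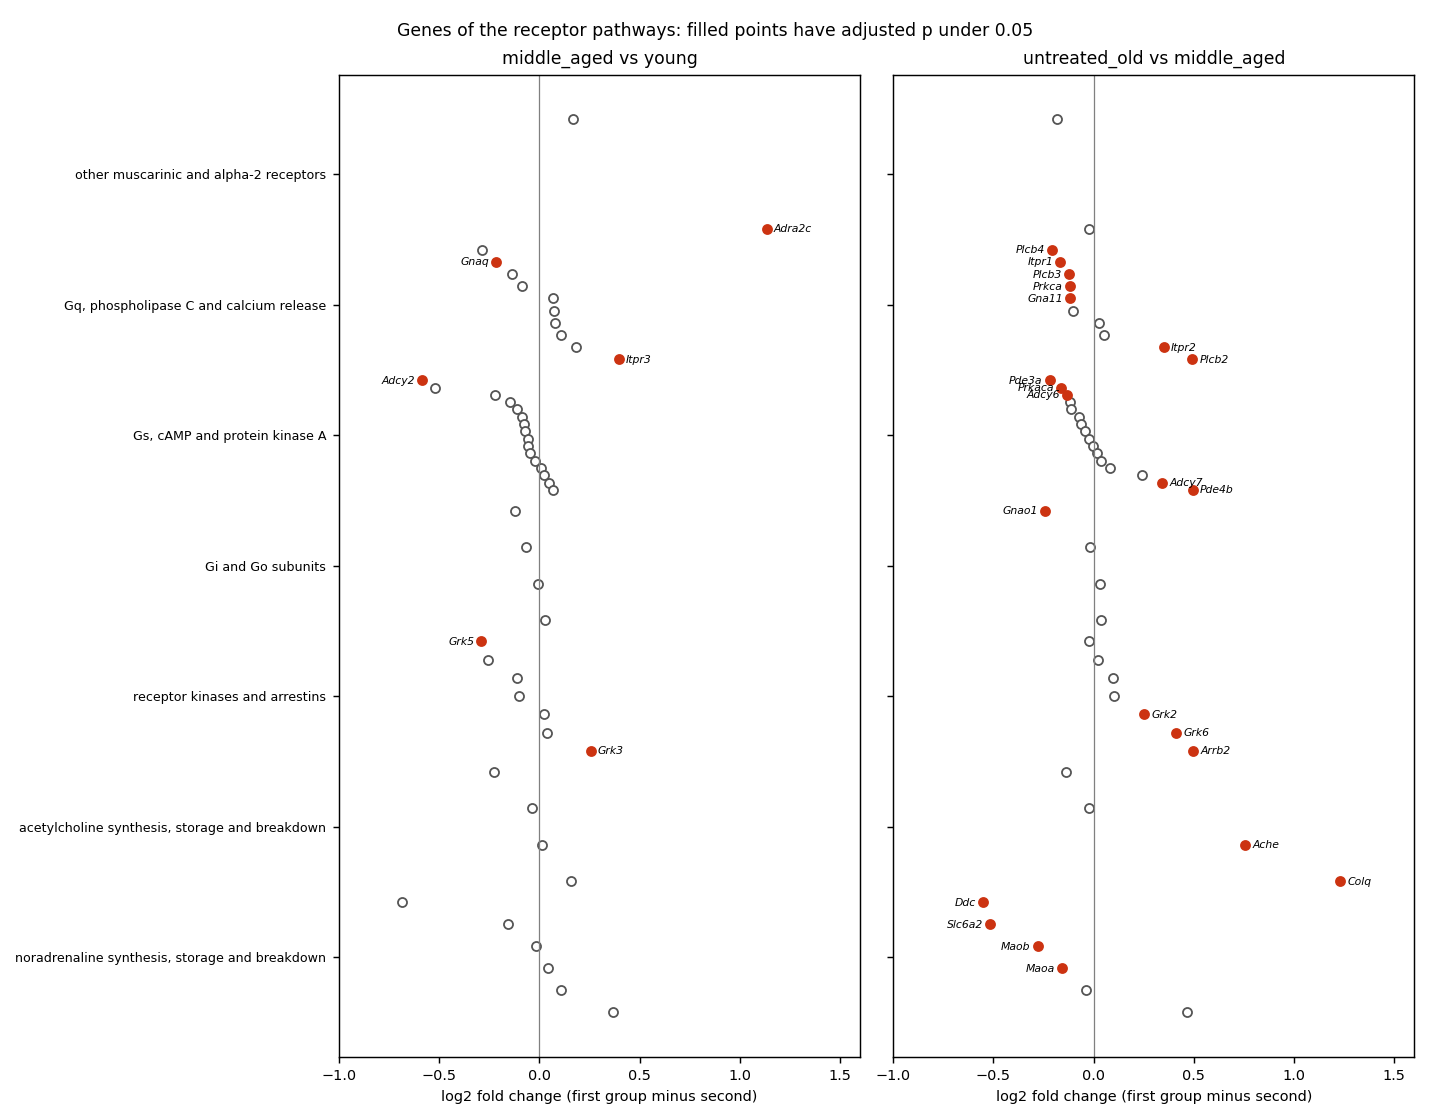
Log2 fold changes of the pathway genes tested, by list, in middle-aged against young (left) and untreated old against middle-aged bladders (right). Each point is a gene, and filled, named points have an edgeR adjusted p under 0.05. Colq and Ache lie farthest to the right in the later step, with 1.23 and 0.75.

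Within groups, none of 24 relations between a receptor and a marker score of smooth muscle, urothelium or adipocytes passed after adjustment (32 bladders, values centred on group means, permutation within groups). Chrm3 ran against the adipocyte score with r = -0.44 (permutation p = 0.03, adjusted p = 0.211) and Spearman's coefficient = -0.47 (permutation p = 0.0175, adjusted p = 0.419). Without the 2 bladders farthest from the median of the score, r was -0.62 with an adjusted p of 0.0286. Chrm1 gave r = -0.46 with smooth muscle (permutation p = 0.0243) and r = -0.41 with urothelium (permutation p = 0.035), Spearman's coefficient = -0.40 and -0.39 (permutation p = 0.0432 and 0.0541), and Adrb1 gave r = -0.42 with urothelium (permutation p = 0.0351) and Spearman's coefficient = -0.32 (permutation p = 0.106). Each of these 3 had adjusted p of 0.211 for r and 0.433 to 0.639 for Spearman's coefficient, and r of -0.42, -0.54 and -0.34 without the 2 farthest bladders. Chrm2 gave r = 0.41 with smooth muscle (permutation p = 0.139, adjusted p = 0.518) and Spearman's coefficient = 0.21 (permutation p = 0.289, adjusted p = 0.691), and r fell to 0.08 without the 2 farthest bladders, so that the value rests on them.

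The genes whose levels ran most like each receptor over the 32 bladders were taken by Pearson's r of log2(CPM + 0.5) among 18093 genes, as a description in which differences between the groups and in library composition are shared by the points. For Chrm2 these were Slco3a1, an organic anion transporter (r = 0.772), Rock2 (0.754) and Ptprz1, a receptor phosphatase (0.746). They stayed at 0.746, 0.751 and 0.726 without young replicate 1. For Adra1a they were Dtx4 (0.869), Dapk1 (0.843) and Arntl (0.820), the last of which encodes a core factor of the circadian clock. These were higher than for any other receptor. For Chrm3 they were St3gal5 (0.661), Afg1l (0.614) and Slco3a1 (0.603), for Adra1b Leo1 (0.737), Fads6 (0.722) and Hr (0.708), and for Adrb3 Fgf16 (0.684), Lhfpl1 (0.658) and Gpat3 (0.640). For Adra1d the nearest were Rab3gap2 (0.700), Gm6277 (0.649) and Gm49484 (0.646), for Adrb1 Ifih1 (0.645), Tppp (0.640) and Gm1720 (0.627), and for Chrm1 Ccdc28a (0.691), Smim27 (0.689) and Serhl (0.675). Among the receptors themselves, Adra1a and Adra1b had r = 0.691 and Chrm2 and Chrm3 r = 0.531, or 0.433 without young replicate 1.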

How the data were processed

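Total RNA of 32 whole bladders was prepared with a stranded kit, and reads were mapped by the authors with STAR 2.7.3 (mm10 genome) and assigned to genes by featureCounts of Subread, and raw counts were deposited with each gene's summed exon length (another unit, in bases). The strand setting of the counting is not given in the sources used here. The authors also deposited normalized expression as log2 values, whose linear values sum to 100000 per bladder. These values hold 1 added count per gene, so that 10 times the linear values is TPM with that count added. The deposited expression served only for alternatives with limma 3.58.1, and CPM and TPM printed here were computed from the counts, with no count added. Replicates are separate bladders as labelled. No pair of the 71 within groups had identical counts, and sequencing batches are not given in the labels.

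Each of 8 comparisons was fitted to the counts of its 2 groups with edgeR 4.0.16 in R 4.3.3 (TMM, filterByExpr with a minimum count of 10, quasi-likelihood test, Benjamini-Hochberg adjusted p under 0.05 over all genes tested), and 1 F test covered the 6 groups. Ratios were log2(TPM + 0.01), compared with two-sided exact permutation tests. Marker scores were means of log2(CPM + 0.5), with 100000 permutations within groups. Alternatives were DESeq2 1.42.0, limma on log2(TPM + 1) and log2(TPM + 0.1), RLE factors, other filters, 1 fit of all groups, the replicate number as a block, other pseudocounts, and each bladder left out. Leaving young replicate 1 out of the nearest genes was chosen after seeing the data. Simulated counts with known folds served as a test of the fits. Pathway genes named are up to 4 per list past the threshold with the largest change in each of the first 2 steps of age, and up to 2 elsewhere, and for each receptor the 3 genes of highest r are named. A further list is not reported here. The receptors and lists were chosen with earlier results of these data known. Permutation tests and plots were made in Python 3.11.15 (SciPy 1.17.1, matplotlib 3.10.9).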

Additional observations from a re-analysis of the deposited data

Results flagged for a closer look

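In each group of 4 to 6 bladders, the highest and lowest value of each receptor was compared with the rest by Dixon's test at 95%. Of 54 such tests 4 found a bladder far from the others of its group, and chance alone gives about 1 in 20. Chrm2 in young replicate 1 stood at 86.19 CPM, with the other young bladders at 20.87 to 32.31 CPM. Adra1b in untreated old replicate 5 stood at 4.295 CPM, with the others at 2.324 to 2.877 CPM. Adra1b in D + Q-treated replicate 4 stood at 3.17 CPM, with the others at 1.744 to 2.156 CPM. Adrb1 in young replicate 2 stood at 2.359 CPM, with the others at 1.296 to 1.485 CPM. All 4 were high values.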

How the results depend on the processing

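The rise of Chrm2 in untreated old against middle-aged bladders kept its direction and its call in every alternative run. In untreated old against young bladders the number of receptors called was 1, and 0 with at least 10 counts in every bladder and in limma on log2(TPM + 1), since Adra1a was then not tested or gave -0.14. It was 1 to 2 with each bladder left out, 2 without young replicate 1 (Chrm2) or young replicate 2 (Adrb1). In middle-aged against young bladders it was 0, and 0 to 1 with each bladder left out, 1 without young replicate 4. With D + Q against untreated old bladders DESeq2 called 1 receptor, Chrm2. Over the 6 groups the number was 1, but 0 with at least 10 counts in every bladder, 2 in DESeq2 and 1 to 2 with each bladder left out. Of the 24 relations with marker scores, 1 passed without the 2 farthest bladders, and the cause was not tested.

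Directions turned for small differences that were not called. Leaving out 1 bladder gave -0.51 to 0.08 for Chrm2 in middle-aged against young, -0.26 to 0.02 for Chrm2 in D + Q against vehicle, and for Chrm3 -0.08 to 0.19 in untreated old against middle-aged and -0.05 to 0.32 against young. In untreated old against middle-aged it gave -0.03 to 0.18 for Adra1b, -0.29 to 0.02 for Adra1d and -0.06 to 0.15 for Adrb3. Adrb3 there also turned to -0.02 and -0.03 in limma on log2(TPM + 1) and log2(TPM + 0.1).

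The replicate numbers used here are those of the sample titles. For some middle-aged, water-treated and vehicle-treated bladders they differ from the numbers in the deposited column names. Correlations of deviations between equal title numbers were -0.295 to 0.153. They cannot show whether bladders were paired by the other numbers. With the title number as a block, receptors called were 0, 1 and 1 in the comparisons of age and 0 elsewhere. Chrm2 in untreated old against middle-aged then gave 0.84, and Adrb3 there gave -0.01. Of 34 calls of pathway genes, 20 held in every alternative and 3 were lost with the block, none turning. Over all genes, calls moved from 1811 to between 711 (block) and 2858 (1 fit of all groups) in middle-aged against young. They moved from 4110 to between 2519 (1 fit of all groups) and 4617 (DESeq2) in untreated old against middle-aged, and from 173 to between 0 and 693 with water. DESeq2 gave 123, 189, 13 and 66 where edgeR gave 0, for vehicle and D + Q against untreated old and D + Q against vehicle and water. Depth limits Chrm1, Chrm4 and Adra1a, at a few counts per bladder.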
